A study of Sus scrofa with 12 samples.

Results

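The cytosolic ribosomal protein genes of the pig were followed through the m6A maps of boar sperm before and after cryopreservation. Members were the mRNA genes of the RefSeq annotation of Sscrofa11.1 whose symbol names a protein of the large (RPL) or small (RPS) cytosolic subunit, RPLP0 to RPLP2 and RPSA included. The rule, which used no measured value, gave 82 of 20678 mRNA genes, 51 of the large and 31 of the small subunit. The sperm came from 3 Duroc boars, 5 ejaculates from each. One portion of each fresh ejaculate went directly into liquid nitrogen (fresh sperm, Fs). The other was cooled to 17 °C and then 4 °C, given egg yolk extender and 6% glycerol, frozen and thawed (frozen-thawed sperm, Fts). Both were washed and treated with Triton X-100 to remove somatic cells before RNA extraction. Libraries numbered 3 Fs and 3 Fts immunoprecipitations (IP), each with its input. The labels give a number from 1 to 3 and do not say which boar it stands for, so the spread between samples may in part be technical.

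The cytosolic ribosome joins ribosomal RNA with proteins of a large (60S) and a small (40S) subunit, and growing cells keep the output of the protein genes coordinated. Their mRNAs are short, abundant and begin with an oligopyrimidine tract, through which mTOR signalling controls their translation. Mature sperm translate little in the cytoplasm, and most of their RNA is left over from spermatogenesis. N6-methyladenosine (m6A) is a methyl mark on adenosines of mRNA, mostly within the RRACH motif, where R is A or G and H is A, C or T. In MeRIP-seq, an antibody against m6A enriches RNA fragments of about 100 nt, and a stretch with more IP than input reads is called a peak.

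Sequences are shown for 8 members, those with a peak in all 6 samples and those with the highest scores. They show coding sequence under peaks of these members, and not all of the members separate the groups. The region of RPL9 covered in all 6 samples lies in a 3′UTR and is not printed. For RPL3 and RPL13A the printed peaks scored 417 and 148, where the highest score of each gene was 3100. Each is the coding (CDS) part of the strongest peak that had one, 5′ to 3′ on the transcript strand of Sscrofa11.1, with RRACH matches in capitals. The stretch of RPL4 lies in exon 10 of 10 at chr1:164476358-164476603 on the minus strand. RPL7A is shown from exon 8 of 8 at chr1:272965467-272965571 (plus strand) and RPLP2 from exon 5 of 5 at chr2:509705-509781 (plus strand). The RPS20 stretch is in exon 4 of 4 at chr4:75763235-75763417 (plus strand). RPL3 is shown from exon 10 of 10 at chr5:8929667-8929711 (plus strand), where the peak of Fts 2 scored 417. RPS7 is shown from exon 4 of 7 at chr3:131262463-131262606 (minus strand), a peak of Fs 2. RPL13A is given from exon 1 of 8 of its longest model at chr6:54552958-54553024 (plus strand). That model is a predicted one, and whether the stretch belongs to the mRNA of the ribosomal protein was not tested. RPL9 is given from exon 5 of 8 at chr8:30695642-30695774 (minus strand). The RPS20 stretch held 4 RRACH matches, those of RPL3 and RPL4 held 2 each, and the other 5 held 0. None of the 8 held GGACT.
RPL4: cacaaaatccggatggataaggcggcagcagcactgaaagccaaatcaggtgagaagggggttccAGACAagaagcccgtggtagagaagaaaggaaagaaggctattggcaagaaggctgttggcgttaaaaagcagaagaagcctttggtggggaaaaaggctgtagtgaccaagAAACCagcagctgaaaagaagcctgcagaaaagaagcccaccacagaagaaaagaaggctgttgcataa
RPS20: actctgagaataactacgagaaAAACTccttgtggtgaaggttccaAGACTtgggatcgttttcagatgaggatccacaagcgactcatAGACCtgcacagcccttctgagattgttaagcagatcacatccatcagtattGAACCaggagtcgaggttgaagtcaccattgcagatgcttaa
RPL7A: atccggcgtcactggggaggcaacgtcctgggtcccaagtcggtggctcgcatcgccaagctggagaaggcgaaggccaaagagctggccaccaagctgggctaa
RPLP2: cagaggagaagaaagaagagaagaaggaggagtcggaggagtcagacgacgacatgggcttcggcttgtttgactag
RPL3: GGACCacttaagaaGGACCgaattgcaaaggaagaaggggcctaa
RPS7: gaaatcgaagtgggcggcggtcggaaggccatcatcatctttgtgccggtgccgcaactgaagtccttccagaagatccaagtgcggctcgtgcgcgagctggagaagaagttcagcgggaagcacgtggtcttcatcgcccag
RPL13A: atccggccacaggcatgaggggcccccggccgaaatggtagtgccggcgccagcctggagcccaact
RPL9: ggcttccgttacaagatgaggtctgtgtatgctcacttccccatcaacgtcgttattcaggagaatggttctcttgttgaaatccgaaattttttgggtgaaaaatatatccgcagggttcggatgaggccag

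Frozen-thawed sperm had peaks on most ribosomal protein genes, and fresh sperm on few. A gene counted as having a peak when a peak of its strand reached at least 1 base into its exons. In Fs, 13, 10 and 8 of the 82 genes had a peak (10.3 ± 2.52, SD, n = 3). In Fts the numbers were 63, 60 and 51 (58 ± 6.25, SD, n = 3). The lowest Fts sample thus lay 38 genes above the highest Fs sample, and the mean was 5.61 times as high. Over all 20678 mRNA genes the share with a peak hardly moved, from 25.4, 30.9 and 30.5% in Fs to 26.8, 29.7 and 31.7% in Fts.

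Because ribosomal protein mRNAs are short, the share was set beside that of other genes of equal length. The longest mRNA of a member had a median of 746.5 nt, against 2857.5 nt over all genes, and 58 of the 82 were under 1000 nt. In the 3 Fs samples 15.9, 12.2 and 9.76% of members had a peak, where other genes, weighted to the same 20 length classes, gave 11.5, 14.5 and 13.8%. In the 3 Fts samples the shares were 76.8, 73.2 and 62.2%, where genes of equal length gave 13.5, 15.8 and 17.0%. Members therefore differed from genes of equal length by −0.68 ± 4.43 percentage points in Fs and by 55.3 ± 9.26 points in Fts (SD, n = 3). In the shortest class, of 161 to 796 nt, 46 members stood beside 987 other genes. There 73.9, 76.1 and 60.9% of the members and 10.1, 13.3 and 13.7% of the other genes had a peak in Fts. Genes of equal abundance were not picked, since the peak lists hold no read counts and the study's own expression tables were not used here. The part of transcript level in these shares was not tested. More m6A on an mRNA and more copies of that mRNA above the detection limit of the caller cannot be told apart from peak lists.

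**Figure D1:**
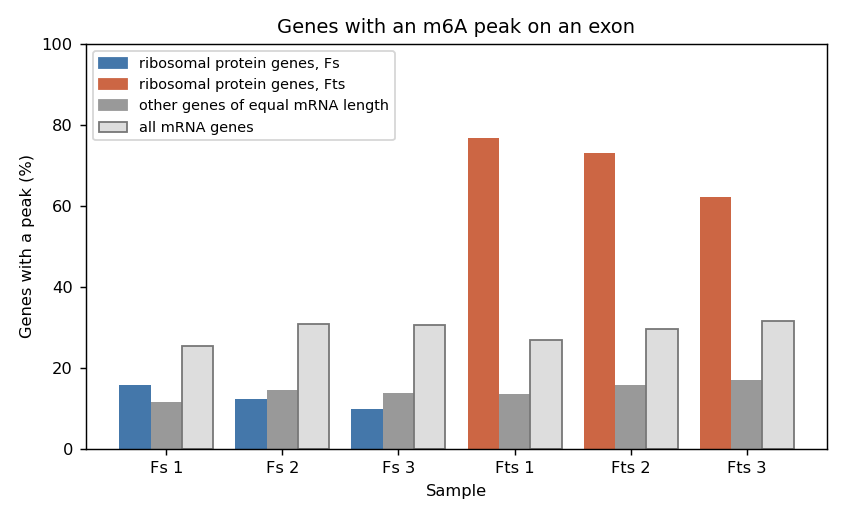
Share of genes with a peak (%, vertical axis) in each of the 3 Fs and 3 Fts samples, for the 82 ribosomal protein genes (blue in Fs, orange in Fts), other genes weighted to the same mRNA lengths (grey) and all 20678 mRNA genes (pale). The Fts bars of the ribosomal protein genes stand between 62.2 and 76.8% and the grey bars between 11.5 and 17.0% in all 6 samples.

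Peak numbers gave the same order. The members carried 15, 10 and 8 peaks in Fs and 122, 129 and 95 in Fts, a ratio of means of 10.5. Over all mRNA genes the ratio was 1.21. For the large subunit the peaks numbered 11, 6 and 3 in Fs and 79, 81 and 64 in Fts. The small subunit had 4, 4 and 5 peaks in Fs and 43, 48 and 31 in Fts. Groups did not overlap for either subunit. In Fts, 17, 19 and 11 members carried 3 or more peaks, and in Fs none did. Where a member had a peak, a median of 36.2, 40.7 and 33.1% of its longest mRNA lay under peaks in the 3 Fts samples.

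Gene by gene, 35 of the 82 members (42.7%) had more peaks in every Fts sample than in any Fs sample, where 5.08% of all mRNA genes did. Among genes of equal length the share was 2.64%. No member had fewer peaks in every Fts sample, where 3.03% of all genes and 1.24% of genes of equal length did. Such a call needs a peak in every Fs sample, which only RPS7, RPL13A and RPL9 had. The absence of downward calls thus says little about the members. Of the 35, 24 encode proteins of the large and 11 of the small subunit. The two-sided exact permutation test of 3 against 3 samples gives p = 0.1 for such a gene, the smallest value the design allows, so no single gene could pass 0.05. The mean peak number was higher in Fts for 68 members, equal for 13 and lower for 1, and the median difference over all 82 was 1 peak. Altogether 27 members (32.9%) had a peak in all 3 Fts samples and in no Fs sample, where 3.16% of all genes did. The opposite pattern, which also needs a peak in every Fs sample, was seen in 0 members and in 2.36% of all genes. Another 17 members (20.7%) had a peak in 2 Fts samples and no Fs sample, where 3.51% of all genes did.

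**Figure D2:**
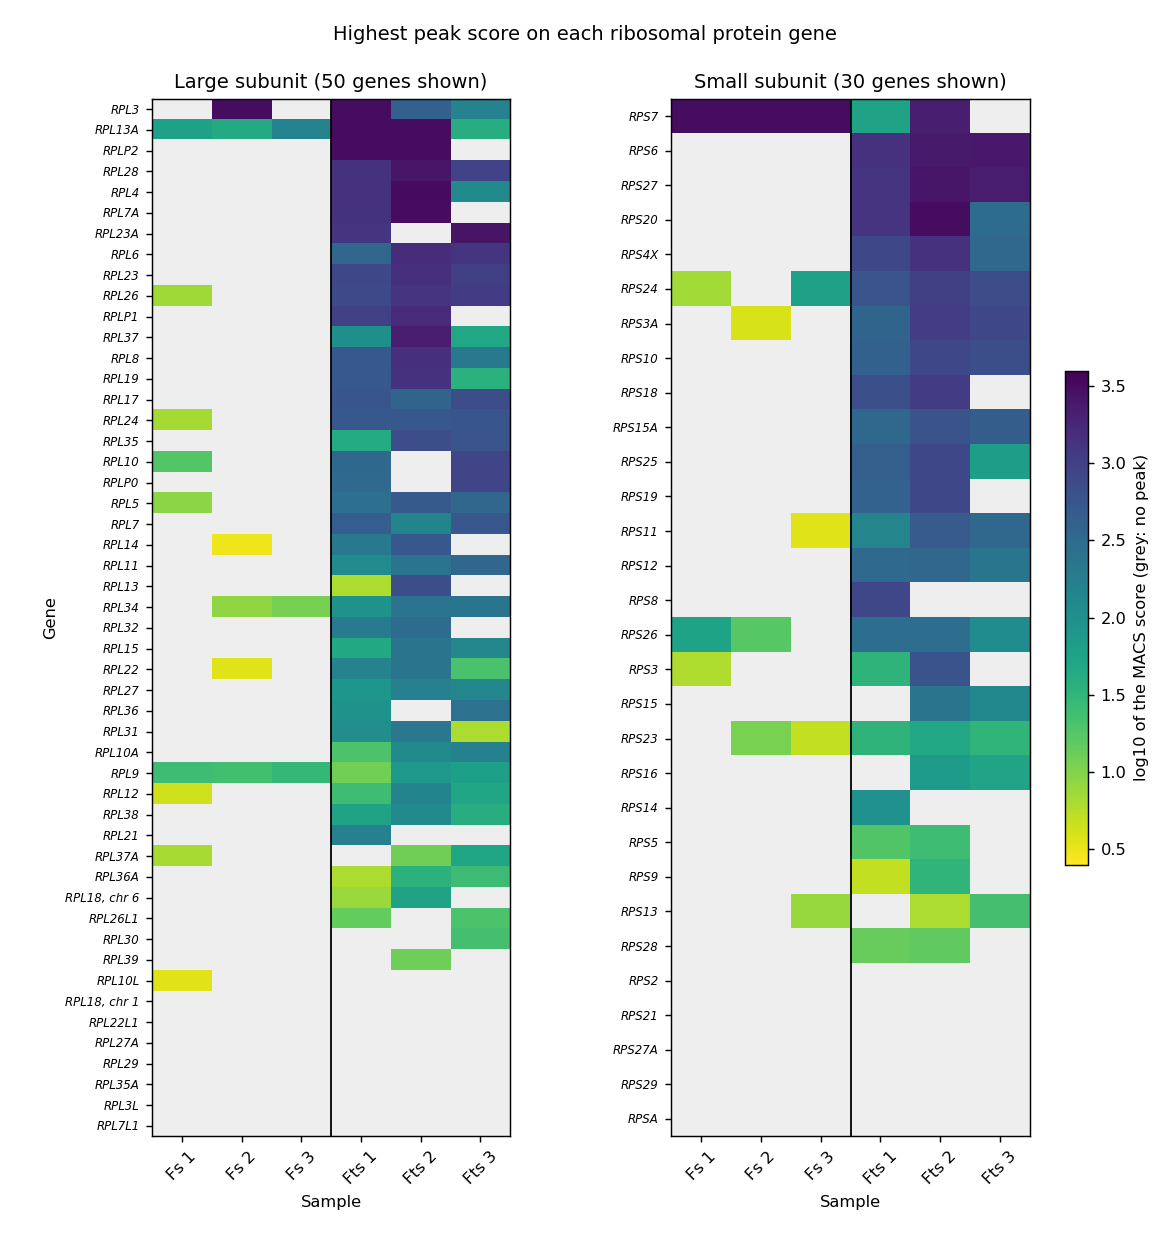
Highest peak score on 80 of the 82 ribosomal protein genes (rows) in each sample (columns), as log10 of the MACS score on the colour scale, with grey where a gene had no peak. Genes are ordered within each subunit by their mean score. Most rows are grey in the 3 Fs samples and coloured in the 3 Fts samples.

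Single genes are described below by the place of their protein in the ribosome, the large subunit first. The score of a peak grows as the p-value of IP against input falls (10 times −log10 p), and the numbers below are the highest score per sample. RPL4 lines the tunnel through which the growing peptide leaves. It had no peak in Fs and 1, 2 and 2 peaks in Fts, with scores of 1402, 3206 and 119.7. All 3 Fts samples shared its peak at the end of the last exon, printed above. RPL8, which lies close to the peptidyl transferase centre, had no peak in Fs and 2, 1 and 1 in Fts, with scores of 526, 1451 and 204. RPL3, which also reaches that centre, had 0, 1 and 0 peaks in Fs and 3, 3 and 2 in Fts. Its only Fs peak, on exon 1 in Fs 2, scored 3100, as did the peak at the same place in Fts 1. The groups of RPL3 did not overlap in peak number, but its scores did.

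Several proteins surround the tunnel exit, where targeting factors and chaperones dock. Among genes for proteins of that area, RPL17, RPL19, RPL26 and RPL35 had more peaks in every Fts sample. RPL23A and RPL39, named after their values were seen, did not. These genes are not a full list of the area. RPL23A had no Fs peak and 1, 0 and 1 Fts peaks, and RPL39 had no Fs peak and 0, 1 and 0 in Fts. RPL17 had 0 peaks in each Fs sample and 1, 3 and 2 in Fts, with scores of 549.9, 374 and 707. For RPL19 the Fts peaks numbered 2, 4 and 1, with scores of 519.6, 1380.3 and 36.5, and no Fs sample had one. RPL26 differed in that Fs 1 held 2 weak peaks, with a highest score of 7.27. Its Fts samples held 4, 4 and 3 peaks that reached 783, 1273 and 1086. RPL35 had 2, 2 and 3 peaks in Fts, up to 43.0, 704 and 568, and no peak in Fs.

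RPL5 and RPL11 bind the 5S rRNA and, outside the ribosome, the p53 regulator MDM2. RPL5 had the largest difference in mean peak number of all members, with 1, 0 and 0 peaks in Fs and 4, 5 and 4 in Fts. The one Fs peak scored 9.03, and the Fts samples reached 268, 497 and 352. RPL11 had no Fs peak and 2, 3 and 2 Fts peaks, scoring up to 113, 240.5 and 349. In both genes every Fts sample lay above every Fs sample.

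The acidic stalk proteins, which recruit translation factors to the large subunit, showed the pattern less evenly. RPLP2 had the same score of 3100 in Fts 1 and Fts 2 and no peak in Fts 3 or in Fs. RPLP1 and RPLP0, named here after their values were seen, likewise lacked Fs peaks and each missed a peak in 1 Fts sample. RPLP1 reached 945 in Fts 1 and 1671 in Fts 2. RPLP0 reached 321 in Fts 1 and 865 in Fts 3. With a 0 in each Fts group, none of the 3 stalk genes separated the groups.

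Among other proteins of the large subunit, RPL28 had no Fs peak and Fts scores of 1363, 2557 and 913.5. RPL6 had 3, 4 and 4 Fts peaks, up to 352, 1543 and 1329.8, and no Fs peak. RPL23, which sits near the factor-binding face, had no Fs peak and scores of 798, 1444 and 977 in Fts. RPL37 gave the widest spread of these, with no Fs peak and scores of 100.02, 2201 and 48.7. For RPL7, RPL15 and RPL27 every Fs sample was at 0 and the Fts samples held 1 to 3 peaks, with highest scores between 45.3 and 545. RPL24 and RPL34 had weak Fs peaks. In RPL24 the one Fs peak scored 6.75 and the Fts scores were 517, 521 and 556. RPL34 had Fs scores of 8.61 and 11.5 in 2 samples and 89.3, 239.6 and 228 in Fts. The groups of all these genes stood apart in peak number. RPL10A, RPL31, RPL36A and RPL38, 4 members named after their values were seen, had the same pattern and no Fs peak. Their Fts scores ran from 6.15 to 212.

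In the small subunit, RPS6, the substrate of the S6 kinases, had 0 peaks in Fs and 4, 3 and 3 in Fts. Its scores of 1385, 2349 and 2431 were among the highest that recurred in all 3 Fts samples. RPS27 showed the same strength with a single peak per Fts sample, scoring 1329, 2525 and 2289.95, and none in Fs. RPS4X had 3, 4 and 2 Fts peaks, up to 813, 1405 and 328, and no Fs peak. Of the head of the small subunit, RPS10, RPS12 and RPS20 had no Fs peak. RPS20 had 1 peak in each Fts sample, at the same position, scoring 1333, 3100 and 291. RPS10 held 3, 4 and 2 Fts peaks with scores of 407, 801 and 676, and RPS12 held 2, 2 and 1 with 319.7, 345 and 230.2. Fts 3 had the lowest score in RPS12 and RPS20 but not in RPS10.

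RPS15A (3, 4 and 4 Fts peaks) and RPS25 (2, 2 and 1) also lacked Fs peaks. Their Fts scores were 328, 597 and 448 for RPS15A and 425, 799 and 64.8 for RPS25. RPS24 and RPS26 carried peaks in 2 Fs samples each. RPS24 scored 7.02 and 58.7 in Fs and 567, 984 and 706 in Fts. RPS26, at the channel where mRNA leaves the subunit, scored 54.6 and 17.0 in Fs and 279.7, 278.8 and 111 in Fts. The highest score of each Fs sample thus lay below that of each Fts sample in both genes. The order did not hold at every region, since at chr5:21431659-21432120 on RPS26 Fs 1 scored 54.6 and Fts 1 and Fts 2 scored 32.3 and 29.9.

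A handful of members did not follow the common pattern. RPL13A and RPL9 were the only ones with a peak in all 6 samples (2.44% of members, where 7.65% of all genes had one). For RPL13A this rests on a predicted transcript model. RPL13A is a protein of the large subunit that can leave the ribosome to silence inflammatory mRNAs. On that model lay a peak of 67 bp with identical ends in every sample. It scored 58.5, 44.4 and 148 in Fs and 18.95, 16.7 and 40.2 in Fts, so here the Fs scores were the higher, with no overlap between the groups. This peak lies in exon 1 of the predicted model, which ends ahead of a second RPL13A peak, at chr6:54568227-54568718. That second peak, on the last exon of shorter models, scored 27.9 in Fs 1, 3100 in Fts 1 and Fts 2, and was missing from the other 3 samples. Whether the 67 bp stretch belongs to the mRNA of the ribosomal protein was not tested, so its score order may concern another transcript. RPL9 had its shared region at chr8:30693501-30694106, in the 3′UTR of its longest model. Scores there were 24.5, 23.5 and 29.6 in Fs and 11.9, 50.5 and 43.8 in Fts, and the groups overlapped. In peak number RPL9 still separated, with 1 in each Fs sample and 3, 4 and 3 in Fts.

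RPS7 was the member with the strongest Fs peaks. Each Fs sample had 1 peak of RPS7, and all 3 scored 3100. In Fs 1 and Fs 3 it lay on exon 1, and in Fs 2 on exon 4, the stretch printed above. Fts 1 had a peak of score 56.95 on exon 6, Fts 2 had one of 306 at that place and one of 2124 on exon 1, and Fts 3 had none. A score of exactly 3100 occurred 12 to 67 times in each sample, and peaks at that score cannot be ranked among themselves.

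No peak of their own strand was found in any sample on 12 members (14.6%, where 43.4% of all genes had none). The 3 longest were RPS2 (longest mRNA 5903 nt), RPL7L1 (2387 nt) and RPL27A (1712 nt). The others were RPL18 on chromosome 1, RPL22L1, RPL29, RPL35A, RPL3L, RPS21, RPS27A, RPS29 and RPSA. RPL18 is the symbol of 2 annotated genes, and only the copy on chromosome 6 had peaks. The 5 paralogue members, taken by a symbol that ends in L or in L and a digit, had few peaks. RPL22L1, RPL3L and RPL7L1 had none, RPL10L had 1 of score 3.49 in Fs 1, and RPL26L1 had 1 in Fts 1 (14.3) and 1 in Fts 3 (20.0). RPL10L, a testis-expressed form of RPL10 encoded by a single exon, was the one member whose mean was lower in Fts. RPL10 itself scored 18.0 in Fs 1, 337 in Fts 1 and 861 in Fts 3. Another 35 mRNA genes that carry only a locus number are annotated with a 60S or 40S ribosomal protein product, 16 of them with a single exon. Of these, 1, 2 and 1 had a peak in Fs and 2, 2 and 0 in Fts, and none had groups that stood apart.

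Fts 3 had fewer members with a peak than the other Fts samples. A peak was present in Fts 1 and Fts 2 and absent from Fts 3 in 14 members, and 41 members had one in all 3. Only 1 member had a peak in Fts 3 alone. Over all mRNA genes the order was different, since Fts 3 had the most genes with a peak, 6545, against 5548 in Fts 1 and 6132 in Fts 2. Without Fts 3, 48 members in place of 35 had more peaks in every remaining Fts sample. That count was not made over all genes.

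The member peaks of Fts were also strong. In the 3 Fs samples the median score of member peaks was 7.27, 14.1 and 20.6, below the medians of all peaks, which lay between 10.7 and 11.9, in Fs 1 and above them in Fs 2 and Fs 3. In Fts it was 96.5, 182 and 119.7, while the medians of all peaks lay between 12.9 and 15.9. The share of member peaks with a score of at least 50 was 20.0, 20.0 and 37.5% in Fs and 60.7, 68.2 and 66.3% in Fts. Over all peaks of a sample that share was 15.4 to 17.9% in Fs and 20.5 to 27.2% in Fts. Of the 111, 258 and 158 peaks that scored at least 1000 in Fts, 12, 23 and 7 lay on ribosomal protein genes. The Fs values rest on 8 to 15 peaks per sample.

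**Figure D3:**
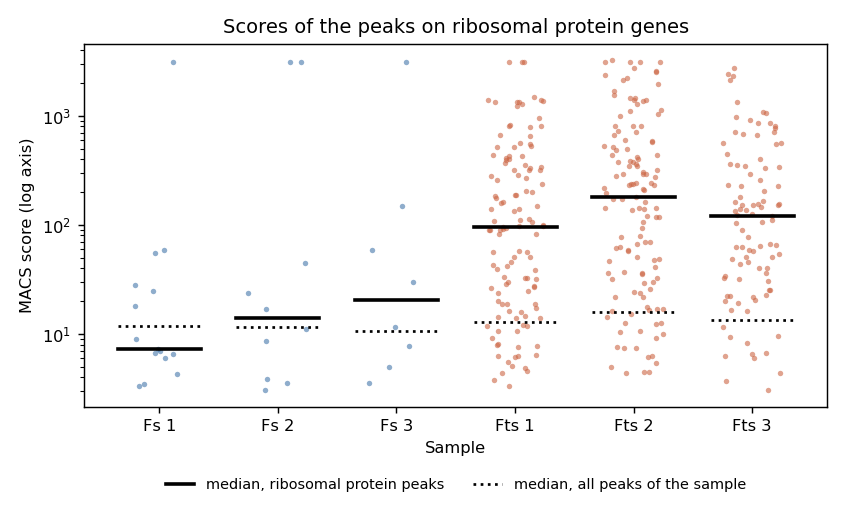
MACS score (log axis) of every peak on a ribosomal protein gene in each sample, as points, with the median of these peaks (solid line) and of all peaks of the sample (dotted line). In the 3 Fts samples the solid lines, at 96.5, 182 and 119.7, stand well above the dotted lines. In Fs there are 15, 10 and 8 points.

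By position, Fts peaks lay at the stop codon, and less clearly at the start codon, more often than the length of these classes would give. Peak midpoints were placed on the longest mRNA, and those within 100 nt of the start or stop codon formed classes of their own. Where a midpoint lay off the exons, that of the longest exonic part was used. Peaks that reached only a little way into a first or last exon could thus count at a codon. In Fts 27.4 ± 2.57% of member peaks lay at the start codon, 33.2 ± 5.69% in the rest of the CDS and 30.5 ± 3.58% at the stop codon (SD, n = 3). The same classes made up 19.9, 38.1 and 18.4% of the length of these mRNAs. With classes of 200 nt the start codon held 38.3 ± 2.70% of Fts peaks, beside 34.4% of the length. The stop codon then held 39.6 ± 3.11%, beside 30.4%. In Fs, with 8 to 14 peaks placed per sample, the shares were 25.5 ± 4.31, 26.1 ± 12.1 and 28.7 ± 8.75%. The groups differed by 7.17 points for the CDS and 1.96 points for the start codon, both less than the spread between the Fs samples. The 3′UTR held 7.14, 10 and 12.5% in Fs and 4.13, 3.13 and 2.13% in Fts, and these shares did not overlap, but each Fs share was 1 peak. The 5′UTR share differed by −4.21 points, Fts minus Fs, where each Fs share was again 1 peak and the groups overlapped. The stop codon class held 31.4, 33.6 and 26.6% in the 3 Fts samples, all above its length share. Of 343 Fts peaks placed, 58 had their midpoint in the last 10% of the mRNA and 35 in the first 10%.

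**Figure D4:**
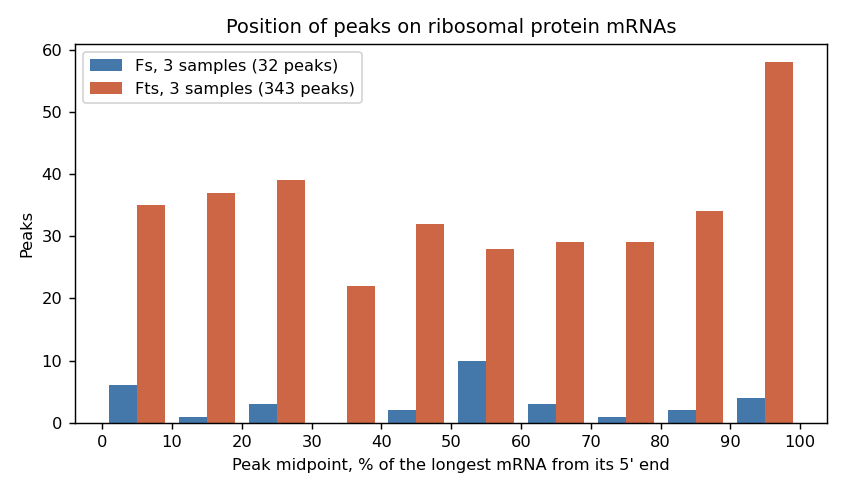
Number of peaks (vertical axis) by the position of their midpoint along the longest mRNA, in steps of 10% from the 5′ end, pooled over the 3 Fs samples (blue, 32 peaks) and the 3 Fts samples (orange, 343 peaks). Where a midpoint lay off the exons, that of the longest exonic part of the peak was used. The last step holds the most Fts peaks, 58, and each of the others holds between 22 and 39.

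Exon structure marked the peaks. In Fts 33.9, 32.8 and 28.7% of peaks lay on the last exon, 45.5, 39.8 and 46.8% on internal exons alone, and 20.7, 27.3 and 24.5% on the first. Last-exon peaks had median scores of 280, 375 and 133, and the others 69.8, 138 and 104, so the last-exon median was the higher in each Fts sample. At least 93.3% of the member peaks of any sample had at least 1 edge exactly at an annotated exon end. Both edges lay at exon ends in 45 of 121, 43 of 128 and 37 of 94 peaks placed on the longest mRNA in Fts. Most peaks thus followed the annotated exons at 1 border, and fewer did so at both. In Fts 28.7 to 32.6% of member peaks had under 50% of their length on exons and ran on into introns or past the gene.

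Merging the 6 lists gave 169 regions on member genes. Of these, 144 were covered in Fts samples only, 5 in Fs samples only and 20 in both groups. All 3 Fts samples and no Fs sample covered 51 regions, on 36 members, and 30 of the 51 had identical ends in the 3 samples. No region was covered in all 3 Fs samples and no Fts sample. In 26 of the 51 regions all 3 Fts samples scored at least 50. Fts 2 had the highest score in 30 of the 51. Regions were merged on member genes only, so no share over all genes stands beside these counts.

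The exonic sequence under most Fts peaks held RRACH, and in each of the 6 samples the share was lower than in peaks of other genes. In Fts 84.4, 82.9 and 82.1% of member peaks had at least 1 RRACH match on the transcript strand. Peaks of other genes with the same exonic length, in classes of 25 nt, had one in 87.0, 85.5 and 86.3%. In Fs the shares were 80, 50 and 75% of 15, 10 and 8 member peaks, beside 87.4, 75.9 and 83.3%. The single form GGACT was found in 9.02, 9.30 and 9.47% of member peaks and in 16.4, 16.6 and 15.4% of the others. All 3 Fts samples thus gave a lower share of GGACT in member peaks. Sequence outside peaks was not searched, so these shares do not show that RRACH is enriched under the peaks. A match is a description of the sequence and does not locate a methylated base.

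Ribosomal protein genes have many processed copies in mammalian genomes, whose reads can be confused with those of the gene. All 454 exons of at least 40 nt of the 82 members were searched, with or without a peak. Of these, 151 exons on 55 members had another genomic locus with at least 95% identity over 80% of the length. In 18 members an exon had one with at least 99% identity, among them RPL7A, RPL9, RPL17, RPS15A, RPS26 and RPS27. The placing of such reads by the aligner was not stated, so values of these 55 members are uncertain in that respect. Of the 27 members without such a locus 4, 2 and 2 had a peak in Fs and 19, 16 and 16 in Fts. Every Fts sample had more peaks than any Fs sample in 10 of the 27 and in 25 of the 55, where 5.08% of all mRNA genes did. Copies of other genes were not searched.

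Related lists were read beside the members. Mitochondrial ribosomal proteins, which build the separate ribosome of that organelle, gave 13, 16 and 17 of 76 genes with a peak in Fs and 15, 19 and 24 in Fts. Groups stood apart in 3 of them upward (MRPL15, MRPS26 and MRPS6) and in 2 downward (MRPL46 and MRPS35). These shares of 3.95 and 2.63% were near the 3.53 and 2.04% of genes of equal length. A further list held 29 annotated translation factors and mRNAs known for an oligopyrimidine tract. The tract was not checked in their sequences, and the list is not one of such mRNAs alone. Of the 29, 8 (27.6%) had more peaks in every Fts sample and 1 (3.45%) had fewer. Among genes of equal length the shares were 4.09 and 2.52%. The elongation factor gene EEF1A1 had no Fs peak and scores of 3100, 3100 and 1385 in Fts, and the poly(A)-binding protein gene PABPC1 had 2, 1 and 1 peaks in Fs and 7, 5 and 5 in Fts. VIM, the 1 with fewer, had a weak peak in each Fs sample and none in Fts. Of 20 genes of ribosome biogenesis, 7 (35%) stood apart upward and 0 downward, where 5.71 and 3.57% of genes of equal length did. NCL, the nucleolar protein nucleolin, had 2, 3 and 2 peaks in Fs and 6 in each Fts sample. Among 15 S6 kinases and regulators, RPS6KA3 and LARP1, a binder of the oligopyrimidine tract, stood apart upward (13.3%, beside 7.19% at equal length). MTOR stood apart downward (6.67%, beside 3.98%), with 1, 3 and 1 peaks in Fs and none in Fts. Counts this small in 15 genes give no result about the list. Of 5 annotated cytosolic ribosomal protein genes outside the symbol rule, 1, 0 and 0 had a peak in Fs and 3, 2 and 2 in Fts. RACK1 of the 40S subunit alone stood apart (20%, beside 3.43% at equal length), with 3, 2 and 3 peaks in Fts and none in Fs.

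**Figure D5:**
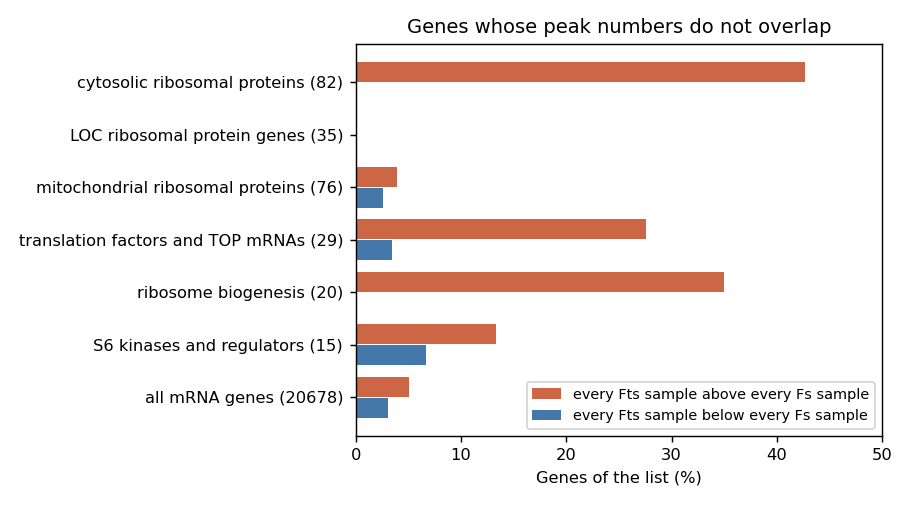
Percent of the genes of each list (number of genes in brackets) whose peak number was higher (orange) or lower (blue) in every Fts than in any Fs sample. The cytosolic ribosomal proteins reach 42.7% upward and 0 downward, beside 5.08 and 3.03% of all mRNA genes.

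Cell identity could not be settled here, since peaks do not give transcript levels, and the peaks of marker genes are only described. Of 8 spermatid transcripts, PRM1, TNP1, ODF1 and AKAP4 had no peak in any sample. In Fts 2, 3 and 2 of the 8 had a peak and in Fs none. ODF2 scored 374 in Fts 1 and 381 in Fts 2, PRM2 3100 in Fts 2 alone and TNP2 2075 in Fts 3 alone. SPATA18 scored 6.23, 14.5 and 44.6 in Fts. SPATA18 alone stood apart upward (12.5% of the list, where 5.08% of all genes did). Of 6 markers of somatic cells, 2, 3 and 2 had a peak in Fs and 0, 0 and 4 in Fts. VIM, also counted in the oligopyrimidine list above, stood apart downward, with 1 peak in each Fs sample and 0 in each Fts sample. It made up 16.7% of the list, where 3.03% of all genes stood apart downward. EPCAM had none, and the highest somatic score in Fts, all of it in Fts 3, was 15.9. Whether the share of cell types or the abundance of RNA moves with the ribosomal protein peaks was not tested.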

How the data were processed

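The study measured m6A by MeRIP-seq in 3 Fs and 3 Fts IP samples, each with an input. The authors trimmed reads with cutadapt 1.9.3, aligned them with HISAT2 to susScr11 (Sscrofa11.1), called peaks of each IP sample against its input with MACS and kept those on mRNAs. They deposited 1 peak list per IP sample. The value of a peak in these deposited lists is the MACS score, 10 times −log10 of the p-value. A deposited list of differential sites holds the authors' own comparison and was not used.

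Here peaks were placed on RefSeq mRNA exons (Annotation Release 106) of the same strand, with Python 3.11.15 and scipy 1.17.1. Chromosome names were matched to the build, and 0 of 61902 peaks reached past a chromosome end. The 6 lists held 8015 to 10378 peaks in Fs and 9682 to 11982 in Fts. No read depth was used, and the precision rests on 3 samples per group. Each gene's peak number was compared by a two-sided exact permutation test over samples, and a gene was called when its groups did not overlap. Values over the members have no test. Genomic copies of member exons were searched with blastn 2.17.0. The placement of peaks was tested on simulated data.

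The members and gene lists were chosen with earlier results of these data known. Genes were named when they had a peak in all 6 samples, when their groups stood apart (together the first 30 by mean score), when they reached the fifth highest score or tied with it, when they were among the 3 longest without a peak, or when they were paralogues. Other names were added after their values were seen. Alternatives were score minimums, the exon overlap, joined peaks, strand, length references, codon classes, the replicate block and the omission of samples. The omission of members with a genomic copy was added after seeing the data. For 2 members no values are reported here by name.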

Additional observations from a re-analysis of the deposited data

Results flagged for a closer look

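Peaks of the opposite strand lay on the exons of ribosomal protein genes and entered no comparison above. There were 2, 0 and 1 of them in Fs and 13, 11 and 13 in Fts (a mean of 12.3 ± 1.15, SD, n = 3, against 1 ± 1), and the groups did not overlap. They were noticed because the Fts level exceeded that of the fresh samples. In Fts 7, 4 and 6 of these peaks also lay on an annotated mRNA of their own strand, as on ACY1 beside RPL29, VPS52 beside RPS18 and NDUFB10 beside RPS2. RPL29, RPS2 and RPS27A, which had no peak of their own strand, all carried such peaks in Fts. On RPL3, an opposite-strand peak at chr5:8923674-8923779 scored 3100 in Fs 1 and Fs 3, and a longer one from the same start scored 3100 in Fts 2 and Fts 3.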

How the results depend on the processing

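All values are Fts minus Fs unless said otherwise, and causes of the moves were not tested. Members with a peak (difference 47.7) moved to 38.3 when at least 50% of a peak had to lie on exons, and to 14.3 among the 27 members without a near-identical copy of an exon, a smaller set. The difference in peaks (104) became 72.3 at a score of at least 50, 71.3 with 50% of the peak on exons and 85.3 with peaks joined across exon junctions. The Fts share beyond equal length (55.3 points) was 42.9 with 50% of the peak on exons and 26.5 when the reference kept genes with a peak in any sample, where the Fs value became −24.1. The 35 genes with more peaks in every Fts sample became 10 of the 27 without copies, 24 at a score of at least 50 and 25 with 50% of the peak on exons. At other scores, exon overlaps or sample sets these calls were not counted over all genes. The 5.08% of all genes holds for the main setting. The start codon difference was 8.84 at a score of at least 20, −5.78 at 50 and −3.57 with classes of 200 nt, so it has no settled sign. The 2 regions covered in all 6 samples fell to 0 at a score of at least 20 or 50. Leaving out each sample in turn gave 45.2 to 51.2 members with a peak, 97.5 to 114.5 peaks and 36 to 48 genes in place of 35, a count that fewer samples can only keep or raise. With the replicate block, 37 genes had more peaks in each of the 3 pairs (6.1% of all genes) and 0 had fewer (3.88%). Equal numbers correlated at −0.0143 to 0.0129 over 11705 genes, so they give no pairing. Depth and transcript level were not tested, since the study's tables of reads and expression were not used here.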
